A study of Mus musculus with 4 samples.

Results

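The genes described here carry out protein folding in the endoplasmic reticulum (ER) or belong to its stress responses, and were measured in the mammary gland of mice lacking Mt1-mmp. A list of 39 such genes was drawn up by function, with earlier results of these arrays known. The list held 18 chaperone-type genes of the Atf6 and Xbp1 kind and 16 genes of the Atf4 kind. It also held 3 stress sensors with Xbp1 itself, and the secretory pathway kinase gene Fam20c. All 39 were found among the 17097 genes with a probe set of their own on the array. For each gene the brightest such probe set was used. A gene was tested when its mean over the arrays reached 4.94 on the log2 scale, the median of all probe sets, and 37 of the 39 did so.

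Tissue came from the inguinal mammary gland on postnatal day 10, taken whole and flash frozen. The groups were Mt1-mmp(+/+) wild-type mice and Mt1-mmp(-/-) mice with a knockout in every cell of the body, born as littermates on an outbred Swiss Black background. Each group had 2 arrays, labelled as biological replicates, without a statement of whether an array held RNA of a single animal. Sex was not given in the sources used here, and no group had any further treatment. Mt1-mmp, listed as Mmp14, is a collagen-cutting protease held in the cell membrane. Its wild-type values were 8.92 and 8.73 and its knockout values 5.83 and 5.68.

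Proteins that will be secreted or placed in membranes fold in the ER with the help of chaperones, and misfolded chains are withdrawn and degraded. When folding falls behind, the sensors Ire1 (Ern1), Perk (Eif2ak3) and Atf6 start the unfolded protein response. Atf6 and spliced Xbp1 act mainly on genes of chaperones and of degradation. Perk, and other kinases that sense a lack of amino acids, favour translation of Atf4, which acts on genes of amino acid supply and on feedback regulators. Spliced Xbp1, cleaved Atf6 and translated Atf4 are not read by an expression array, which measures only the amount of transcript.

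The factors of these pathways are known to bind short DNA elements, so the promoter windows of the members were searched for them, to show which letters the chaperone-type and the Atf4-type genes share. Windows were RefSeq sequences of the build GRCm38.p6, from 250 bases before to 50 after an annotated transcript start. A window was found for 35 of the 39 members (not for Atf6, Cth, Hyou1 and Manf) and for 27025 genes in all. The ER stress response element (ERSE) was searched as CCAAT and CCACG with any 9 bases between them, its variant ERSE-II as ATTGG and CCACG with any 1 base between them, the element UPRE as TGACGTGG and the Atf4 element CARE as TGATGNAAN, on both strands. No matches overlapped each other.

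ERSE was found in 8 of 16 chaperone-type genes with a window, in 0 of 15 Atf4-type genes, and in 0.137% of all genes. ERSE-II was found in the chaperone-type genes Dnajb11 and Herpud1, and in 0.0444% of all genes. CARE was found in 6 of 15 Atf4-type genes, in 1 of 16 chaperone-type genes (Herpud1), and in 4.5% of all genes. UPRE was found in 0 members and in 0.714% of all genes. The genes were listed for their known place in these pathways, so these shares describe the lists and are no independent result. The matches in members are printed in the direction of the motif, first ERSE and ERSE-II, each with its fixed letters in capitals and flanking bases in lower case.
Hspa5 ERSE, chr2:34772020-34772048, plus strand: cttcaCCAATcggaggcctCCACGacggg
Hsp90b1 ERSE, chr10:86705528-86705556, plus strand: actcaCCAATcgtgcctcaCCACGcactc
Hsp90b1 ERSE, chr10:86705633-86705661, minus strand: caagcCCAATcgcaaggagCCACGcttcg
Dnajc3 ERSE, chr14:118937822-118937850, plus strand: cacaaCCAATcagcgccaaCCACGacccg
Calr ERSE, chr8:84847070-84847098, plus strand: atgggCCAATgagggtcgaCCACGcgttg
Pdia6 ERSE, chr12:17266486-17266514, plus strand: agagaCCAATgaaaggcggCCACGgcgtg
Canx ERSE, chr11:50325795-50325823, minus strand: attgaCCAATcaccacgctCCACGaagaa
Creld2 ERSE, chr15:88819515-88819543, minus strand: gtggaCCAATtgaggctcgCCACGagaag
Syvn1 ERSE, chr19:6046527-6046555, plus strand: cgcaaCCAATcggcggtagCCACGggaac
Dnajb11 ERSE-II, chr16:22857843-22857871, plus strand: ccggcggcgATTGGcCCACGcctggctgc
Herpud1 ERSE-II, chr8:94386368-94386396, plus strand: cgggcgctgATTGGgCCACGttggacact

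The 9 bases between the fixed ends of ERSE differ from gene to gene, while CCAAT and CCACG recur. Hspa5, which encodes the main ER chaperone BiP, had its site 65 bases before the transcript start. The 250 bases before that start are shown because Hspa5 is the standard readout of this response.
Hspa5 upstream, chr2:34771840-34772089, plus strand: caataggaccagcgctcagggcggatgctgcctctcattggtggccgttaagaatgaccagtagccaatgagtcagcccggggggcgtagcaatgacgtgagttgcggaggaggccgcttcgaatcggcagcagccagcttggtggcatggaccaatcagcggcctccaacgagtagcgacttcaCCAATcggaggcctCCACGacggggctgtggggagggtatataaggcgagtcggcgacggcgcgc

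The CARE matches follow, 7 in Atf4-type genes and 1 in Herpud1, again with the fixed letters in capitals. Chac1 and Vldlr are set side by side because they had the largest differences of the Atf4-type genes, in opposite directions.
Chac1 CARE, chr2:119351038-119351066, minus strand: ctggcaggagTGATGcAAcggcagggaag
Vldlr CARE, chr19:27216809-27216837, minus strand: ctaggagcgcTGATGcAActattgctgct
Herpud1 CARE, chr8:94386306-94386334, minus strand: gggtgcgggcTGATGcAAcccgccgtggt
Asns CARE, chr6:7693214-7693242, minus strand: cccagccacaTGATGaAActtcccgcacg
Trib3 CARE, chr2:152344029-152344057, plus strand: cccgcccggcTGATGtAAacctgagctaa
Atf3 CARE, chr1:191183426-191183454, plus strand: gcggacttggTGATGcAAgtgcgagaagg
Slc7a11 CARE, chr3:50443643-50443671, plus strand: ggctgcatgaTGATGcAAattctccaggt
Slc7a11 CARE, chr3:50443661-50443689, minus strand: ctcatgtggcTGATGcAAacctggagaat

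The sites of Chac1, Vldlr and Herpud1 shared the same 9 letters, TGATGcAAc, while those of Asns, Trib3, Atf3 and Slc7a11 differed from them at the free positions. The site of Trib3 lay after the transcript start, as did the ERSE-II site of Dnajb11. The region before the start of Chac1 is given for the same contrast, with its site on the other strand in capitals.
Chac1 upstream, chr2:119350992-119351241, plus strand: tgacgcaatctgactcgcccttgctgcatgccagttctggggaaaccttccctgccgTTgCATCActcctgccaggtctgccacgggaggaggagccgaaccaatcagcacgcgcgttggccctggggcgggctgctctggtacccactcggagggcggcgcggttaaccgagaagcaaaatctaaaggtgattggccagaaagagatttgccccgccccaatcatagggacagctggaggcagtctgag

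**Figure D1:**
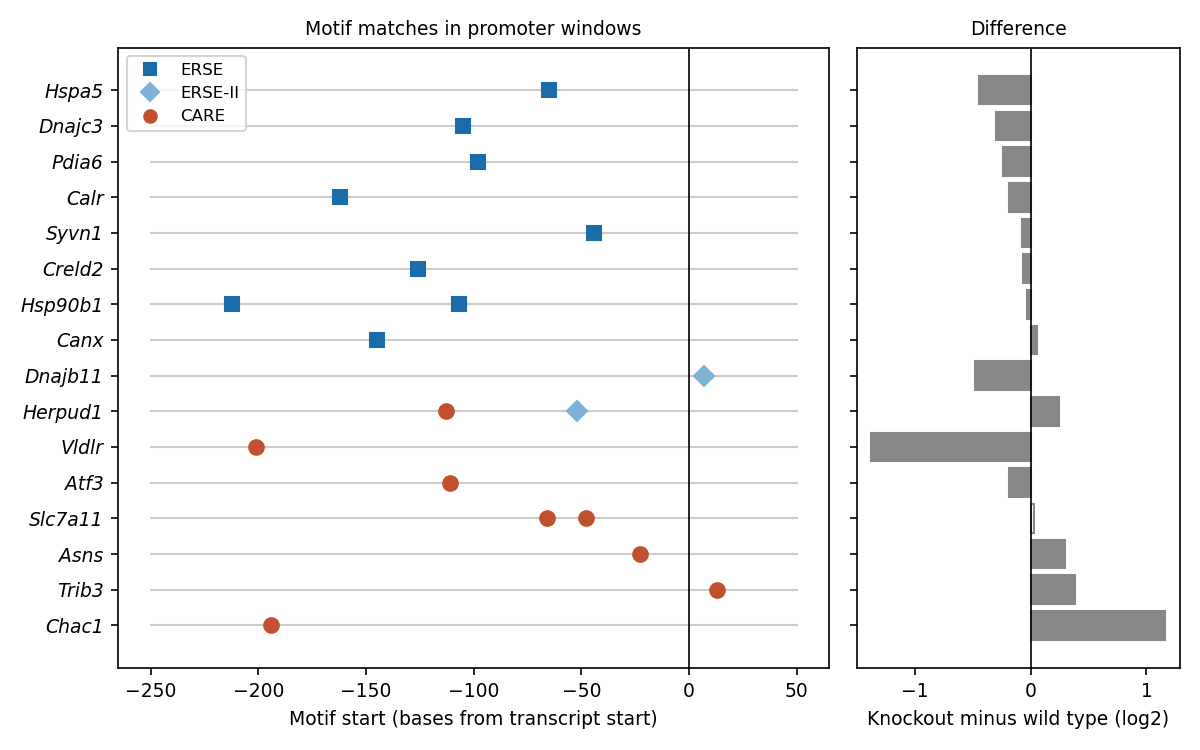
Motif matches in the promoter windows of 16 members (left; x axis, bases from the transcript start at 0, with the window as a grey line) and the knockout minus wild-type difference of the same genes on the log2 scale (right; the open bar is Slc7a11, which was not tested). Chac1 and Vldlr both hold a CARE match near the far end of the window, with differences of 1.16 and -1.38.

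No member passed the test between knockout and wild type. With limma and Benjamini-Hochberg adjustment over 11078 genes at 0.05, 0 members were called, as were 0 of all genes (0%), by all of the other fits that used all 4 arrays as well. At an unadjusted limma p under 0.05 there were 13 of 37 members (35.1%), 4 higher and 9 lower, against 21.8% of all tested genes, 9.69% higher and 12.1% lower. The 2 arrays of each group did not overlap for 24 of 37 members (64.9%), against 58.8% of all tested genes. Of these, 8 were higher in both knockout arrays and 16 lower in both, where all tested genes gave 26.3% and 32.5%. The members were chosen with earlier results of these arrays known and include Fam20c, so these shares are no independent result. Differences below are given as knockout mean minus wild-type mean on the log2 scale, with limma's moderated standard error and n = 2 arrays per group, and none of them passed the test. The arrays of a group are labelled as biological replicates, but whether an array held RNA of a single animal or of several is not stated. The p-values measure only the spread between the arrays of a group.

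**Figure D2:**
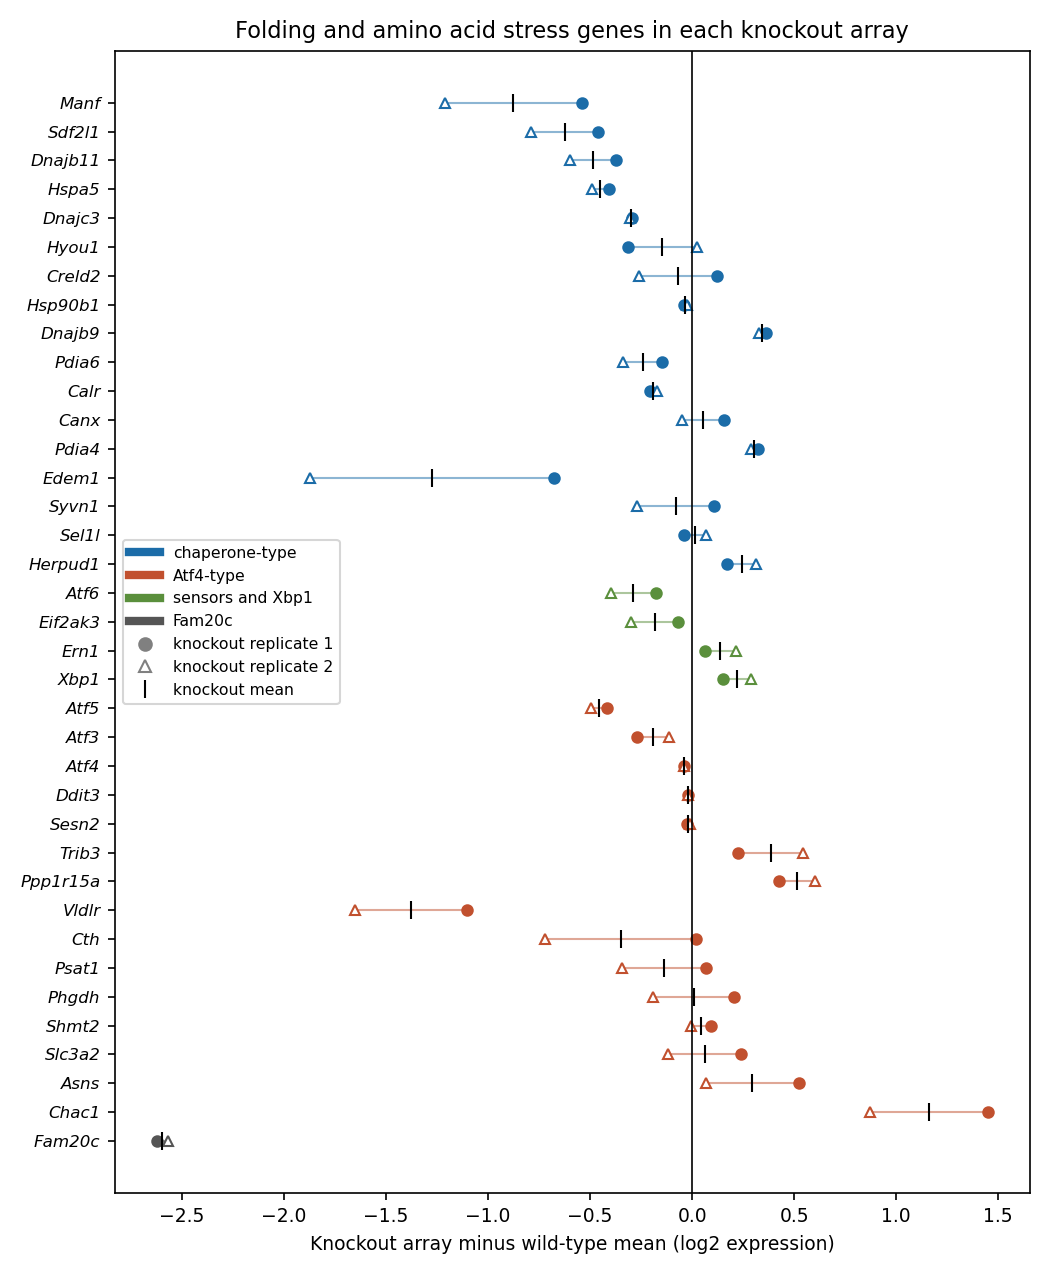
Difference of each knockout array from the wild-type mean (x axis, log2 expression) for the 37 tested members, grouped by role and coloured by kind. Circles are knockout replicate 1, open triangles replicate 2 and ticks their mean. Edem1, Manf, Vldlr and Fam20c stand far to the left in both arrays and Chac1 far to the right, while Atf4, Ddit3, Sesn2 and Hsp90b1 lie close to 0.

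Most chaperones and their helpers had lower means in the knockout. Of the 9 genes in this group 8 had a lower mean (88.9%, against 53.5% of all tested genes) and 6 were lower in both knockout arrays (66.7%, against 32.5%). Dnajb9 alone was higher in both (11.1%, against 26.3%). Hspa5 had wild-type values of 10.99 and 10.99 and knockout values of 10.59 and 10.50. Both knockout arrays lay below both wild-type arrays, by 1.37-fold in the mean (-0.45 ± 0.09, SE). Its other probe set differed by -0.64, so the direction did not rest on a single probe set. Dnajb11, a co-chaperone that delivers clients to BiP, had 8.35 and 8.36 against 7.98 and 7.76. It was lower by a similar amount (-0.49 ± 0.12). Dnajc3, the co-chaperone also called p58IPK, differed by -0.30 ± 0.09, and all 5 of its probe sets were lower.

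Manf, a small secreted factor retained in the ER with BiP, had wild-type values of 9.96 and 9.98 and knockout values of 9.43 and 8.76. The difference was 1.84-fold (-0.88 ± 0.26), and the 2 knockout arrays lay further apart than they did for Hspa5. Sdf2l1, a partner of the Dnajb11 co-chaperone, differed by -0.63 ± 0.20, but its wild-type arrays were 0.40 apart. The wild-type spread of Sdf2l1 was the widest in this group, and its lower knockout values have to be read beside it. Hsp90b1, the ER form of the Hsp90 chaperone (Grp94), differed by -0.03, with a 95% interval from -0.29 to 0.22. Its direction turned in cyclic loess and quantile scaling, so no direction is given for it. Hyou1, a large nucleotide exchange factor, and Creld2, a disulfide-related ER protein, had overlapping groups (-0.15 and -0.07).

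Dnajb9, whose product ERdj4 holds the sensor Ire1 inactive together with BiP, was the exception. It had wild-type values of 9.18 and 9.21 and knockout values of 9.56 and 9.52, a difference of 0.34 ± 0.09. Both knockout arrays were thus above both wild-type arrays. Hspa5 and Dnajb9 kept opposite directions in all alternatives run, from -0.54 to -0.36 for Hspa5 and from 0.32 to 0.42 for Dnajb9. Their difference from each other was not tested.

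The disulfide isomerases and lectin chaperones, which form disulfide bonds and hold glycoproteins for folding, went both ways. Pdia4 had wild-type values of 7.84 and 7.96 and knockout values of 8.22 and 8.19 (0.30 ± 0.10), higher in both arrays. Pdia6 had 9.29 and 9.23 against 9.12 and 8.93 (-0.24 ± 0.11), lower in both. Calreticulin (Calr) had 11.21 and 11.16 against 10.98 and 11.01. This was lower in both knockout arrays by a small amount (-0.19 ± 0.09), and its other probe set differed by -0.26. Calnexin (Canx) had 10.61 and 10.71 against 10.81 and 10.61, with overlapping groups (0.05 ± 0.12). Its direction turned with the probe set, since a dimmer set differed by -0.26. Pdia3 was below the brightness limit, with wild-type values of 4.86 and 4.83 and knockout values of 4.54 and 4.87, and was not tested.

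Degradation genes held the largest difference of the chaperone-type genes beside 3 small ones. Edem1, a lectin-like protein that hands misfolded glycoproteins to degradation, had wild-type values of 8.71 and 8.67 and knockout values of 8.01 and 6.82. It was lower in both knockout arrays, by 2.42-fold in the mean (-1.28 ± 0.43), with most of the size in knockout replicate 2. A further Edem1 probe set differed by -0.84. Herpud1, a stress-induced part of the same membrane complex, had 8.81 and 9.02 against 9.08 and 9.23 (0.24 ± 0.13). It was higher in both knockout arrays, but the wild-type arrays were 0.21 apart, so the gap between groups was smaller than the spread within wild type. The ubiquitin ligase gene Syvn1 (Hrd1) had 8.85 and 8.97 against 9.02 and 8.64, with overlapping groups (-0.08 ± 0.17). Its partner gene Sel1l had 8.88 and 8.88 against 8.84 and 8.95, also overlapping (0.01 ± 0.10). The signs of Syvn1 and Sel1l changed with the probe set, the array left out or, for Sel1l, median centring.

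**Figure D3:**
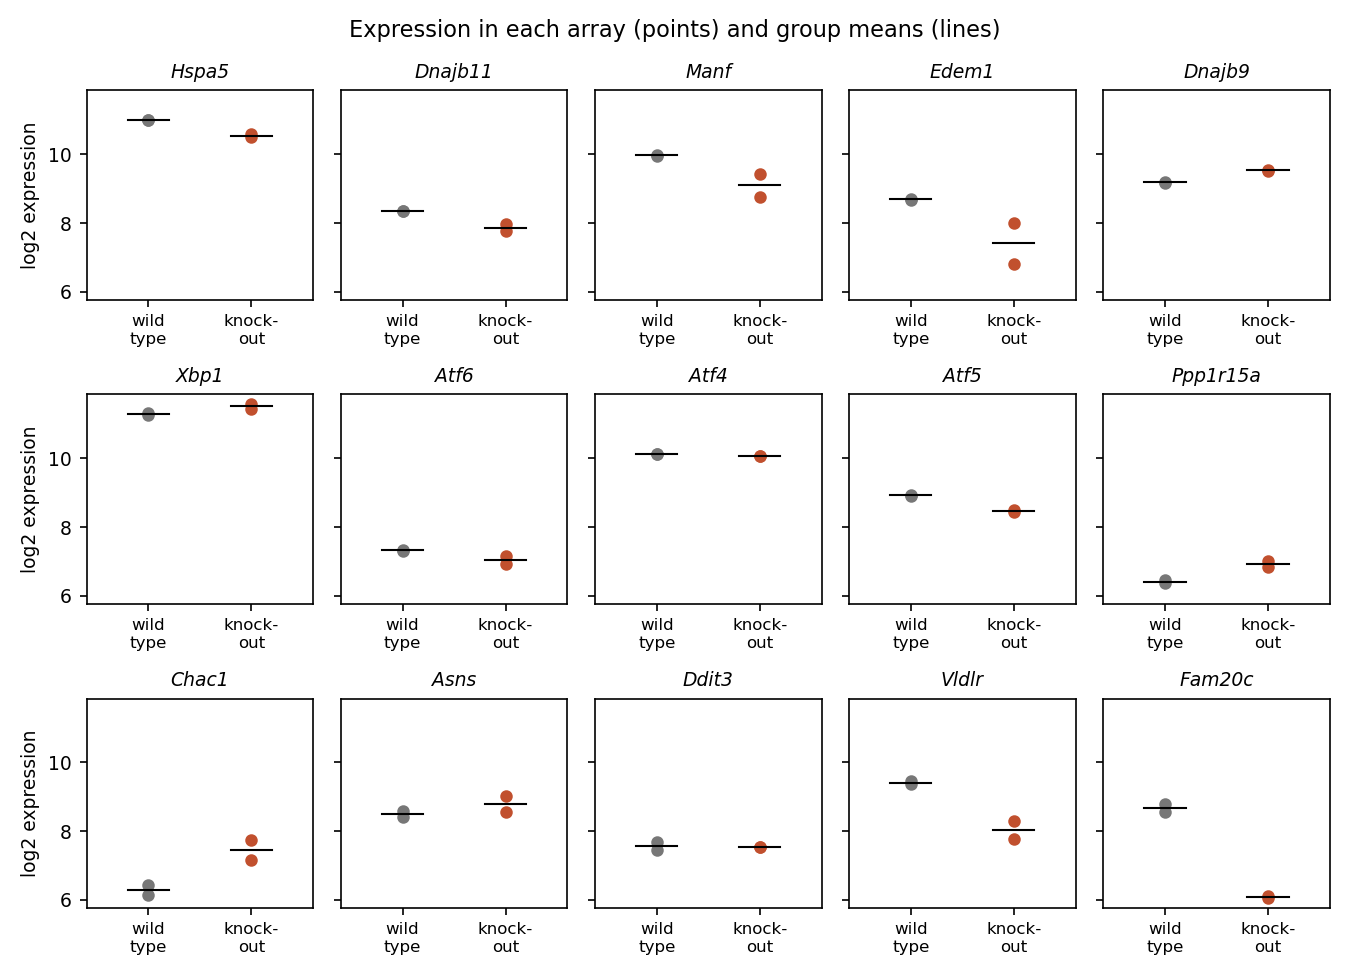
Log2 expression of 15 members in each array (points) with group means (lines), wild type in grey and knockout in red, on a shared axis. Fam20c, Vldlr, Edem1 and Manf are lower and Chac1 higher in both knockout arrays, and Atf4 and Ddit3 are level. Heights are not comparable between genes, because probe sets differ in brightness.

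The sensors and Xbp1 had differences of less than 0.30 in size. Atf6 had wild-type values of 7.33 and 7.32 and knockout values of 7.15 and 6.93 (-0.29 ± 0.12), and its other probe set also differed by -0.29. Eif2ak3, encoding Perk, had 7.49 and 7.48 against 7.41 and 7.19 (-0.18 ± 0.12). Both were lower in both knockout arrays, Eif2ak3 by only 0.07 in replicate 1. Ern1, encoding Ire1, had 7.23 and 7.24 against 7.30 and 7.45 (0.14 ± 0.10), and its other probe set above the brightness limit differed by 0.01. Xbp1, the transcript that Ire1 splices, had 11.26 and 11.33 against 11.45 and 11.58 (0.22 ± 0.10). It was higher in both knockout arrays, 3 of its 4 probe sets were higher by 0.22 to 0.31, and the dimmest differed by -0.09. The array does not tell the spliced form from the unspliced form. Xbp1 is also abundant in luminal epithelium, whose 12 tested markers had a median difference of 0.69 beside it (0.83 and 0.51 in the knockout replicates). Between the wild-type arrays these markers differed by a median of -1.02 (replicate 2 minus replicate 1), a larger size than between the groups. Xbp1 differed by 0.08 between the same arrays. The part of epithelium in the Xbp1 value was not tested.

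Among transcription factors and feedback genes of the Atf4 kind, Atf4 itself was level. It had wild-type values of 10.12 and 10.12 and knockout values of 10.08 and 10.08 (-0.04 ± 0.09), with a 95% interval from -0.29 to 0.21. Its sign turned in cyclic loess and quantile scaling. Ddit3, the gene of the stress factor Chop, had 7.45 and 7.69 against 7.55 and 7.55. Both knockout values fell between the wild-type values (-0.02 ± 0.12, 95% interval from -0.36 to 0.32). Atf3, a further factor induced by Atf4, had 5.21 and 5.60 against 5.13 and 5.29. These overlapped (-0.19 ± 0.17) and lay close to the brightness limit, where differences are compressed.

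Atf5, a related factor whose own translation is stress-controlled, had wild-type values of 8.91 and 8.95 and knockout values of 8.51 and 8.43. It was lower in both knockout arrays by 1.37-fold (-0.46 ± 0.09), with a single probe set. Ppp1r15a (Gadd34), which directs the phosphatase that ends Perk signalling, went the other way. It had 6.37 and 6.47 against 6.84 and 7.02 (0.51 ± 0.11). Trib3, a pseudokinase that restrains Atf4, had 5.88 and 5.90 against 6.12 and 6.43, higher in both knockout arrays (0.38 ± 0.14). Sesn2, a leucine sensor gene, differed by -0.02 with a 95% interval from -0.27 to 0.23.

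The group of amino acid and redox genes, in which Vldlr was also placed, held the largest differences of the Atf4-type genes, in opposite directions. Chac1, whose product breaks down glutathione, had wild-type values of 6.13 and 6.44 and knockout values of 7.74 and 7.16. Both knockout arrays were above both wild-type arrays, by 2.24-fold in the mean (1.16 ± 0.25). Vldlr, the receptor for very low density lipoprotein and an Atf4 target in stress, had 9.46 and 9.37 against 8.31 and 7.76. It was lower by 2.60-fold (-1.38 ± 0.22), and all 5 of its probe sets were lower, from -1.38 to -0.45. Vldlr is also a gene of fat and muscle. Beside it, the median skeletal muscle marker differed from its wild-type mean by 5.93 in knockout replicate 2 and by -0.71 in replicate 1. Of the tested adipocyte markers 5 of 6 had a lower mean, the median difference was -0.20, and the leptin gene Lep had the smallest p among them (-5.00 ± 0.89). The parts of muscle and of fat cell content or state in the Vldlr value were not tested. In whole tissue, fewer cells of a type and less transcript per cell cannot be told apart.

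The amino acid synthesis genes had overlapping groups. Asns, the asparagine synthetase gene, had wild-type values of 8.42 and 8.59 and knockout values of 9.03 and 8.57. Only knockout replicate 1 lay above the wild-type arrays (0.30 ± 0.19). Cth, which makes cysteine, had 5.58 and 5.30 against 5.46 and 4.72, with overlapping groups (-0.35 ± 0.30). The serine pathway genes Phgdh, Psat1 and Shmt2 and the transporter gene Slc3a2 ranged from -0.14 for Psat1 to 0.06 for Slc3a2. All 4 had overlapping groups, and each changed sign in some alternative. The cystine transporter gene Slc7a11 was below the brightness limit, at 4.25 and 4.14 against 4.09 and 4.36, and was not tested.

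Fam20c, which encodes the Golgi kinase that phosphorylates secreted proteins such as casein, had the largest difference of all members. It had wild-type values of 8.79 and 8.56 and knockout values of 6.05 and 6.10. The groups were far apart, by 6.05-fold (-2.60 ± 0.12), with the knockout arrays 0.05 apart and limma's adjusted p at 0.0738. All 3 probe sets were lower, the others by -1.78 and -0.63, the last of which was below the brightness limit. Fam20c is not a chaperone or a known core target of either factor, and it stands on neither side of the contrast that follows. Its relative Fam20a had overlapping groups (-0.17 ± 0.15).

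As a whole the chaperone-type genes had a median difference of -0.15 and the Atf4-type genes one of -0.02, where all tested genes had -0.02. The contrast between the medians was -0.13, and it was -0.21 in knockout replicate 1 and -0.22 in replicate 2. In replicate 1 the medians were -0.15 for chaperone-type and 0.07 for Atf4-type genes, and in replicate 2 they were -0.26 and -0.04. Between the wild-type arrays the contrast was -0.02. The chaperone-type median was thus lower than the Atf4-type median in each knockout array, although both kinds held members on either side of 0. Both knockout arrays were set against the same wild-type mean, so their contrasts are not independent of each other. The further lists described below had medians of -0.22 for ER folding and export genes and -0.14 for Atf4 and amino acid response genes. The median of the further Atf4 genes thus lay near that of the chaperone-type members. Within the chaperone-type genes, the median was -0.30 for the 9 chaperones and co-chaperones. It was -0.07 for the 4 tested isomerases and lectin chaperones and -0.03 for the 4 degradation genes. Of 17 tested chaperone-type genes 12 had a lower mean and 5 a higher one, and of 15 tested Atf4-type genes 8 were lower and 7 higher, where 53.5% of all tested genes were lower and 46.5% higher. The sign of the Atf4-type median depended on the scaling, at 0.04 after cyclic loess and 0.03 after quantile scaling, while the chaperone-type median was -0.10 in both. With the 75th percentile brightness filter, the median over all 6643 genes kept was -0.07. The chaperone-type median was then -0.11 and the Atf4-type median -0.02, so the chaperone-type members lay closer to the median of these brighter genes. The lists were chosen with earlier results of these arrays known, and no test of the contrast was made.

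**Figure D4:**
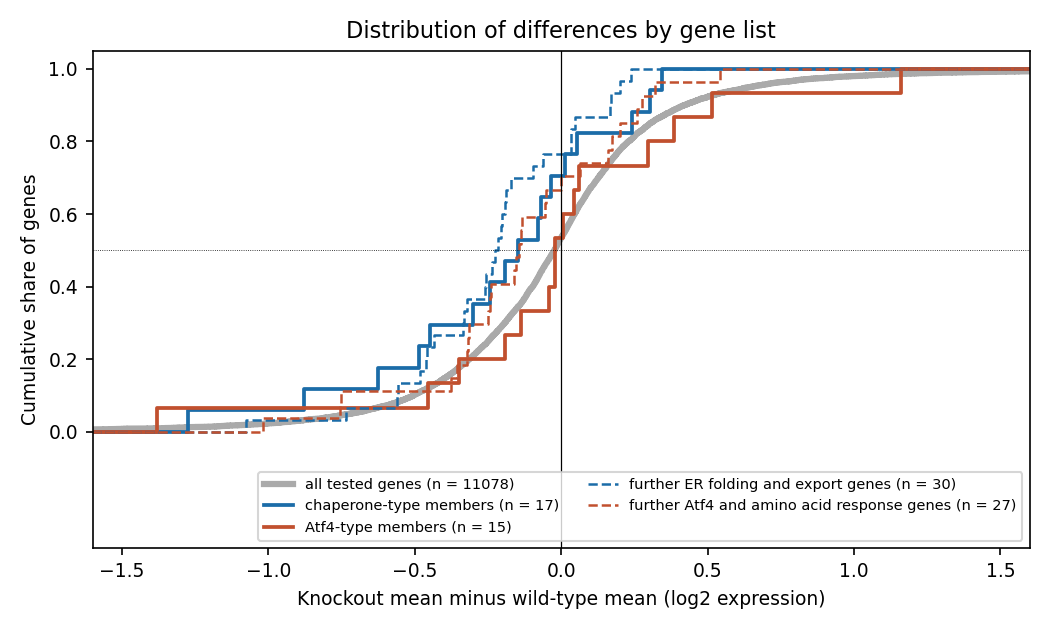
Cumulative share of genes (y axis) at or below a given knockout minus wild-type difference (x axis, log2) for all 11078 tested genes, the chaperone-type and Atf4-type members (solid) and the further genes of each pathway (dashed). The chaperone-type curve and both dashed curves cross the middle line left of 0, at -0.15, -0.22 and -0.14, and the Atf4-type curve crosses it at -0.02.

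Promoter elements were set beside these differences as a description. The 10 chaperone-type genes with ERSE or ERSE-II had 8 lower and 2 higher means, from -0.49 for Dnajb11 to 0.24 for Herpud1, with a median of -0.14. The 5 others with a window ranged more widely, from -1.28 for Edem1 to 0.34 for Dnajb9, with a median of 0.01. The 5 tested Atf4-type genes with CARE had 3 higher and 2 lower means, with a median of 0.30. The 9 other tested ones with a window had 4 higher and 5 lower means, with a median of -0.02. Those with CARE ranged from -1.38 for Vldlr to 1.16 for Chac1, the whole span of their kind. Genes with the same letters thus differed in either direction, as the sites of Chac1 and Vldlr printed above show.

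Further genes of the 2 pathways, listed by function with earlier results of these arrays known, were read in the same way. Of 30 tested genes of ER folding and export 23 had a lower mean, 18 were lower in both knockout arrays (60% against 32.5% of all tested genes) and 6 higher in both (20% against 26.3%), and the median was -0.22 (-0.11 for replicate 1, -0.33 for replicate 2). None passed with limma after adjustment, and 3 were lower at an unadjusted p under 0.05 (10%), which is not above the 12.1% of all tested genes. Fkbp11, a prolyl isomerase gene of secretory cells, had the smallest p (-1.08 ± 0.29). The export coat gene Sec24d (-0.73 ± 0.20) and Creb3l1 (-0.46 ± 0.15), a membrane-bound factor of matrix-secreting cells, were also lower in both arrays. Wfs1, an ER membrane protein gene, differed by -0.32 ± 0.13, and Mbtps2, the protease that completes Atf6 cleavage, by 0.24 ± 0.09.

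Of 27 tested further Atf4 and amino acid response genes 19 had a lower mean, 13 were lower in both knockout arrays (48.1% against 32.5% of all tested genes) and 4 higher in both (14.8% against 26.3%), and the median was -0.14 (-0.04 for replicate 1, -0.18 for replicate 2). None passed with limma after adjustment, while at an unadjusted p under 0.05 there were 2 higher genes and 3 lower genes. Together these were 18.5%, below the 21.8% of all tested genes. The alanyl-tRNA synthetase gene Aars (-0.75 ± 0.12), the stress and fat cell factor gene Cebpb (-0.37 ± 0.09) and the amino acid transaminase gene Bcat1 (-1.02 ± 0.31) were lower. The translation inhibitor gene Eif4ebp1 (0.54 ± 0.10) and Ppp1r15b (0.32 ± 0.11), the constant counterpart of Ppp1r15a, were higher. The 2 phosphatase-directing genes Ppp1r15a and Ppp1r15b thus had higher values in both knockout arrays.

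The knockout arrays differed from each other more than the wild-type arrays did, by a median of 0.19 against 0.06 over the tested members and 0.21 against 0.08 over all tested genes. Skeletal muscle markers had array medians of 4.93 and 6.48 for wild type and of 4.82 and 11.8 for the knockout, with 14 of 15 higher in the mean. Epidermis and hair follicle markers were at 5.83 and 6.79 against 9.47 and 4.64, with 8 of 10 tested genes higher in the mean. Stromal fibroblast markers, which mark the matrix-secreting cells, had a median difference of 0.03 with 5 of 10 lower. Mast cell genes had a median difference of 0.90, with 7 of 7 tested genes higher in each knockout array (100%, against 26.3% of all tested genes). The mast cell gene Fcer1a was below the brightness limit (-0.08) and was not tested. Of 5 plasma cell genes on the array, Jchain, Pou2af1 and Tnfrsf17 were below the brightness limit. Irf4 had wild-type values of 5.04 and 5.37 and knockout values of 7.90 and 6.28, higher in both knockout arrays (1.88 ± 0.59), and Prdm1 had overlapping groups (-0.21 ± 0.18). The parts of these cell types in the members' values were not tested.

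Leaving out either knockout array brought members past the threshold, in a fit that takes the spread of the remaining knockout array from the wild-type pair. Without knockout replicate 1, limma called 14 of 37 members (37.8%), 4 higher and 10 lower, where 37.7% of all tested genes were called, 13.1% higher and 24.6% lower. Without knockout replicate 2 it called 5 of 37 (13.5%), 1 higher and 4 lower, where 11.7% were called, 6.73% higher and 4.99% lower. The shares of members were near those of all genes in both cases. Called in both fits were 5 of 37 members (13.5%), against 8.18% of all tested genes, namely Chac1 higher and Edem1, Fam20c, Manf and Vldlr lower. Both fits use the same wild-type pair for the spread, so they are not independent of each other. Without replicate 1 Edem1 differed by -1.87 and Manf by -1.21, and without replicate 2 they differed by -0.68 and -0.54. Knockout replicate 2 had the higher muscle markers and the lower epidermis and hair follicle markers of the knockout arrays. The part of these tissues in the Edem1 and Manf values was not tested.

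Members at least 1.5-fold apart without overlap were few. Edem1, Fam20c, Manf, Sdf2l1 and Vldlr were lower by that much, 5 of 37 (13.5%) against 6.91% of all tested genes. Chac1 was higher by that much, 1 of 37 (2.7%) against 4.6% of all tested genes. At the other end, 12 of 37 members (32.4%) lay within 1.1-fold of no difference, against 35.8% of all tested genes, among them Atf4, Ddit3, Hsp90b1, Canx and Phgdh.

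**Figure D5:**
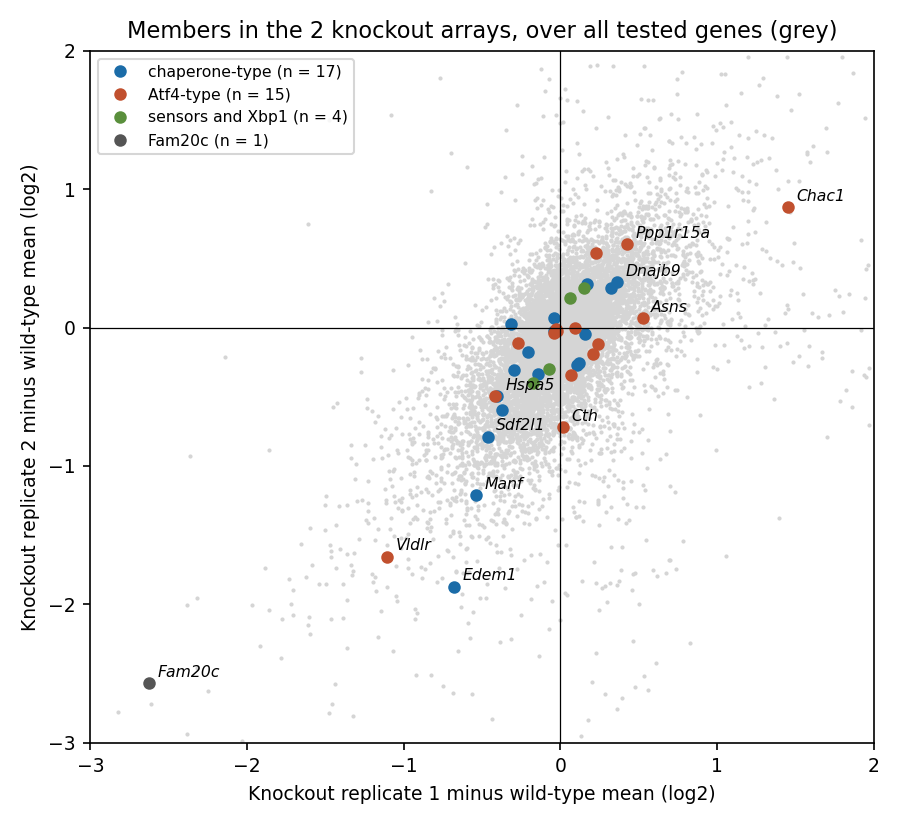
Difference from the wild-type mean in knockout replicate 1 (x axis) and replicate 2 (y axis), both log2, for the 37 tested members over all tested genes in grey, with axes limited to the range from -3 to 2. Fam20c, Vldlr, Edem1, Manf and Sdf2l1 lie at the lower left and Chac1 and Ppp1r15a at the upper right, while Asns and Cth stand out in a single array.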

How the data were processed

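Whole mammary gland RNA was measured on 4 Affymetrix arrays, 2 wild-type and 2 knockout. Array probes were summarised with RMA in affy, per the submitters' processing notes, with versions not given in the sources used here. RMA gives all arrays a like distribution, which hides any change shared by most transcripts, and it compresses differences near background. The deposited values were read as log2 expression from their range of 3.20 to 13.6 in wild-type replicate 1, and the scale was not stated.

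Of 45141 probe sets, 28898 were annotated with 1 gene, 551 with several and 15692 with none, and only those with 1 gene were named. The brightest set by mean was kept for each of 17097 genes, and 11078 genes at or above 4.94 were tested. Knockout was compared with wild type by limma 3.58.1 in R 4.3.3 (lmFit and eBayes, no covariate, Benjamini-Hochberg adjustment over all tested genes, two-sided). The fit was also run on simulated data with added differences and the same spread in both groups. There it called from 42.5% of the genes given a difference of -1 to 97.5% of those given -3. In the real data the knockout arrays spread more than the wild-type arrays, so these shares do not carry over. No detection calls entered, and precision is limited by the small number of arrays.

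Per-array values are given for Atf4, Atf6, Xbp1, Ern1, Eif2ak3, Hspa5, Ddit3, Asns and Fam20c, for up to 4 genes with the smallest unadjusted p in each group of members, and for the members not tested. Up to 5 such genes are named in each further pathway list. The members and lists were chosen with earlier results of these data known. Promoter windows came from RefSeq (GRCm38.p6).

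Alternatives were other brightness filters, other rules for probe sets, 3 further scalings, each array left out, a block for the replicate number, weighted arrays, and a prior with a trend or a robust fit. Replicate numbers were not taken as pairs, because deviations of same-numbered arrays correlated at -0.09.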

Additional observations from a re-analysis of the deposited data

How the results depend on the processing

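Of the 37 tested members 22 kept the sign of their difference in every alternative in which they were tested, Chac1, Edem1, Fam20c, Hspa5, Manf and Vldlr among them. The other 15, none of which differed by more than 0.35 in size with all arrays, gave 27 values of opposite sign, and the cause was not tested. Averaging a gene's probe sets gave -0.10 for Canx, -0.12 for Sel1l, 0.061 for Sesn2 and -0.010 for Phgdh. Without probe sets whose names end in _s_at or _x_at Canx was at -0.26 and Syvn1 at 0.017. Median centring gave -0.012 for Sel1l and -0.019 for Phgdh, cyclic loess 0.060 for Hsp90b1, 0.042 for Atf4 and 0.0079 for Ddit3, and quantile scaling 0.057, 0.029 and 0.028 for the same genes. With an array left out, values ran from -0.31 to 0.023 for Hyou1, -0.26 to 0.12 for Creld2, -0.048 to 0.16 for Canx, -0.27 to 0.11 for Syvn1, -0.040 to 0.068 for Sel1l, -0.39 to 0.0039 for Atf3, -0.14 to 0.097 for Ddit3, -0.34 to 0.067 for Psat1, -0.19 to 0.21 for Phgdh, -0.0043 to 0.093 for Shmt2, -0.12 to 0.24 for Slc3a2 and -0.72 to 0.019 for Cth.

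The contrast between chaperone-type and Atf4-type medians was negative in every alternative, all drawn from the same 4 arrays. It was -0.14 with no brightness filter and after cyclic loess, and -0.091 with the 75th percentile filter. It was -0.11 with averaged probe sets and -0.17 without probe sets whose names end in _s_at or _x_at. With an array left out it ran from -0.22 to -0.11, the chaperone-type median from -0.26 to -0.14 and the Atf4-type median from -0.041 to 0.067. Counts called with an array left out ran from 0 to 1455 genes higher, 0 to 2725 lower, 0 to 4 members higher and 0 to 10 members lower. With the replicate block 0 genes were called, and the smallest adjusted p was 0.207. Same-numbered arrays deviated from their group means with a correlation of -0.09, so the numbers were not taken as pairs. Signal near background limits Atf3, Cth, Pdia3 and Slc7a11.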
